A study of Mus musculus with 10 samples.

Results

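The mitochondrial ribosomal protein genes are the nuclear genes that encode the protein part of the mitochondrial ribosome, and here they are the genes of the count table whose mouse symbol begins with Mrpl or Mrps followed by a number, with at least 50 counts summed over the 10 libraries. The rule found 78 genes among the 27179 of the table, 49 of them Mrpl and 29 Mrps. None was lost to the minimum, since the lowest summed count of a member was 1927 and the highest 24016, and all 78 also passed the filter on low counts and were tested. The RNA came from effector memory (EM) γδ T cells (CD3+ γδTCR+ CD44+ CD62L-) sorted from the spleens of female C57BL/6 mice that were 6 to 8 weeks old at infection. Naïve mice (n=5) received no parasites, and pre-exposed mice (n=5) received 50000 Plasmodium chabaudi infected red blood cells (iRBC) intravenously. Both groups were given chloroquine and pyrimethamine on day 14, each injected at 10 mg/kg and followed by 5 days of drugged water, and spleens were taken 12 weeks after drug treatment. Each mouse gave 1 library, and the comparison asks how the memory-like cells of cured mice differ from those of mice that met only the drugs.

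Mitochondria carry their own ribosome, which translates only the few mRNAs of the mitochondrial genome, all of them for membrane subunits of the respiratory chain and ATP synthase. Its RNAs are made inside the organelle, whereas every one of its proteins is translated in the cytosol and imported, so that its assembly draws on both genomes. Part of the proteins descend from bacterial ribosomal proteins, and the others were added in the mitochondrial lineage. T cells are known to expand mitochondrial translation on activation, and memory T cells to rely on mitochondrial respiration.

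The libraries held 6587199 to 22542832 counts, of which 23446 to 140634 fell on the members. Marker levels are given as CPM over all counts of the library, without scaling. Other CPM are counts over library size, scaled by the trimmed mean of M values (TMM), unless stated. The summed level of 5 γδ T cell markers (Cd3e, Cd3g, Cd3d, Trdc, Cd44) was 4750 to 7277 CPM in naïve mice and 3182 to 8704 in pre-exposed mice. Markers of other cells moved with the groups as well. Those of monocytes and macrophages summed to 34.0 to 154 CPM in naïve mice and to 29.5 to 1333 in pre-exposed mice (5 of 5 called higher), those of dendritic cells to 15.8 to 55.6 and 15.4 to 489 (3 of 5), and those of erythroid cells to 76.0 to 430 and 299.6 to 1775 (3 of 4). Markers of αβ T cells summed to 29.2 to 67.8 CPM in naïve mice, to 163 to 182 in pre-exposed mice 1 to 4 and to 13.0 in mouse 5 (0 of 3 called). The 5 B cell markers summed to 40.9 to 102 CPM in naïve and 27.2 to 121 in pre-exposed mice, with 3 tested and 2 called higher. Cd79b, the most abundant, was at 39.9 to 100 CPM in naïve and 26.5 to 98.8 in pre-exposed mice. Cd79a was at 20.8 and 18.7 CPM in pre-exposed mice 1 and 2, 0.69 to 3.75 in mice 3 to 5 and 0.75 to 2.68 in naïve mice. Pax5 was at 0 in all 10 libraries. The part of these cells in the members' levels was not tested. In pre-exposed mice 1 to 5 the monocyte and macrophage markers summed to 909, 1333, 590, 330 and 29.5 CPM. On the same unscaled measure the members summed to 3296, 6239, 5429, 5245 and 5693 CPM. In bulk RNA, a change in the number of cells of a type cannot be told apart from a change of RNA per cell.

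Of the 78 members, 18 were upregulated in EM γδ T cells of pre-exposed mice and 60 did not pass the test. Short genes as a whole were higher in these mice (median log2 fold change 0.87, 23.8% called higher among genes with under 1000 bases of exon), and with the trend on gene length removed the median of the members went from 0.72 to 0.10 and their calls from 18 to 1, with 0 in the small subunit. The quasi-likelihood test of edgeR, adjusted over all 12655 genes tested, called 18 of the 78 members higher (23.1%) and 0 lower, against 5.12% of all genes called higher and 1.17% lower. Before adjustment 49 members were above with p under 0.05 (15.6% of all genes) and 0 were below (8.73%), and DESeq2 called 28 higher and 0 lower (7.97% and 2.7% of all genes). The log2 fold change (pre-exposed over naïve) of the members had a median of 0.72, with quartiles of 0.46 and 0.98, beside a median of 0.02 over all genes. It was above 0 for 76 members and below 0 for 2, Mrps2 and Mrpl44 (3 with Mrpl3 when no scaling beyond library size was used). With voom and limma and no fold threshold, 0 members passed an adjusted p of 0.05 (42 higher and 1 lower unadjusted, with 0.537% of all genes called higher and 0.221% lower), and voom with TREAT at 1.5-fold called 0 members and 2 of all genes. The count of calls thus depended on the model, whereas the median of the members lay between 0.54 and 0.85 in every fit run without a term for gene length. When naïve mouse 1 or 4, or mouse 2 of the pre-exposed group, was left out, edgeR called 0 members (35 to 40 above before adjustment; 0.588% to 1.82% of all genes called higher), and without naïve mouse 2, 3 or 5 or pre-exposed mouse 3 or 4 it called 1 to 7 (1.42% to 3.78% of all genes). Without pre-exposed mouse 1 it called 37, and 9.47% of all genes higher and 3.91% lower.

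The summed level of the members shows which mice carried the difference. It was 3558, 3775, 3693, 3376 and 3388 CPM in naïve mice 1 to 5, a spread of 179 CPM (SD). In pre-exposed mice 1 to 5 it was 3442, 6843, 5650, 5061 and 9048 CPM. Pre-exposed mouse 1 thus lay within the naïve range and the other 4 mice above it. Relative to the whole library, without TMM scaling, mouse 5 fell to 5693 CPM, between mice 3 and 2, since its 10 most abundant genes took 24.7% of the counts (5.61% to 10.2% elsewhere) and its TMM factor was 0.68.

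Counted gene by gene, 7, 69, 66, 57 and 62 of the 78 members lay above the naïve range in pre-exposed mice 1 to 5, and 9, 2, 1, 6 and 4 below it. In 62 members mouse 1 lay within the naïve range. Mice 2 to 4 were all above it in 52 members, compared with 17.8% of all genes. The highest level of a member was in mouse 5 for 41 members and in mouse 2 for 27. The spread between mice (SD of log2 CPM) had a median of 0.24 in naïve and 0.52 in pre-exposed mice, and was larger in the pre-exposed group for 75 members, as it was for 78.7% of all genes.

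**Figure D1:**
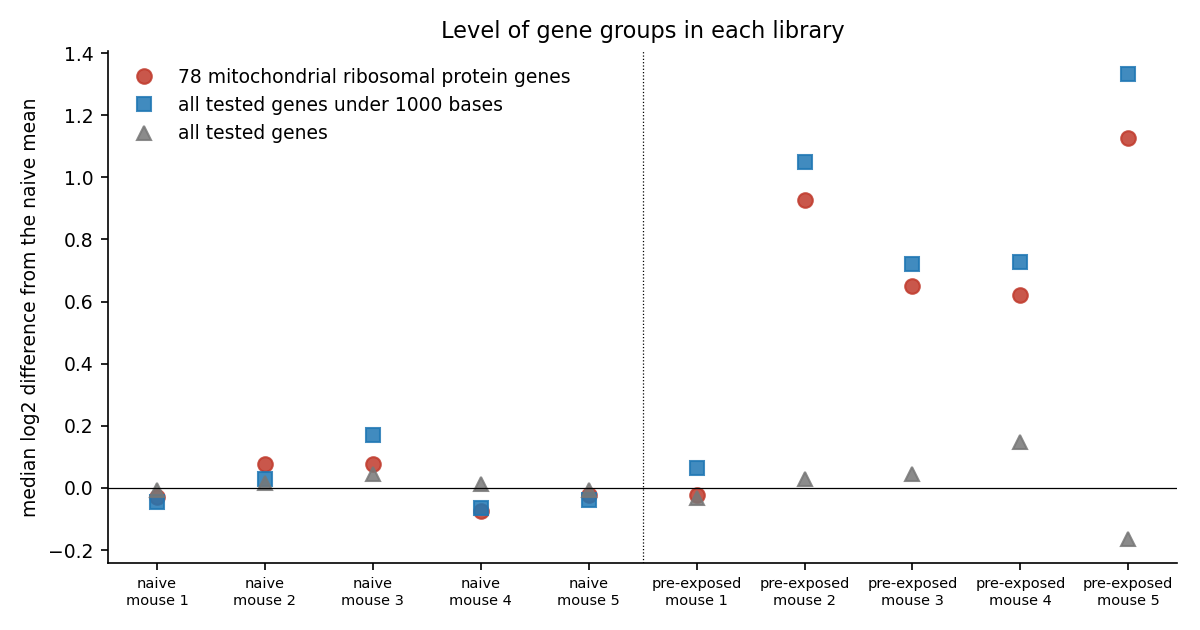
Median log2 difference from the naïve mean in each of the 10 libraries, for the 78 members (circles), all tested genes with an exonic length under 1000 bases (squares) and all tested genes (triangles). The members lie near the short genes in each library: in pre-exposed mouse 1 they are at -0.02 and the short genes at 0.06, and in mice 2 to 5 the members are at 0.93, 0.65, 0.62 and 1.13, while the median of all genes stays between -0.17 and 0.15.

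The large subunit, which forms the peptide bonds, contributed 51 members, of which 12 were called higher and 0 lower (33 higher and 0 lower unadjusted, DESeq2 18 and 0), with a median log2 fold change of 0.72. The small subunit, which binds and decodes the mRNA, contributed 26, with 6 called higher and 0 lower (16 higher and 0 lower unadjusted, DESeq2 10 and 0) and a median of 0.65. The ratio of the summed large to the summed small subunit mRNAs was 2.05 to 2.16 in naïve and 1.97 to 2.14 in pre-exposed libraries, so that the ranges overlapped. By origin, 6 of 30 large subunit proteins with a bacterial homologue, 6 of 21 large subunit proteins specific to mitochondria and 6 of 16 small subunit proteins with a bacterial homologue were called. Of the 10 small subunit proteins specific to mitochondria edgeR called 0, with 4 above at an unadjusted p under 0.05 and 1 called by DESeq2. The medians of these 4 classes were 0.77, 0.66, 0.97 and 0.54, and differences between the classes were not tested.

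The largest change of a member was in Mrpl52, a large subunit protein without a bacterial counterpart (chr14:54426909-54429750, GRCm38). It had 22.9, 29.5, 30.7, 21.0 and 22.3 CPM in naïve mice and 29.2, 95.1, 69.3, 70.2 and 208 CPM in pre-exposed mice 1 to 5. Only mouse 1 overlapped the naïve range, and mouse 5 stood far above the others. The log2 fold change was 1.89 ± 0.40 (SE, n=5 per group; edgeR adjusted p = 0.0199).

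Mrpl23 (chr7:142532467-142540747), the homologue of a bacterial protein at the exit of the peptide tunnel, was among the less abundant members. Its levels were 7.12, 8.996, 10.8, 5.198 and 6.07 CPM in naïve mice and 8.28, 33.3, 19.98, 30.1 and 28.9 CPM in pre-exposed mice. Mice 2 to 5 were all above the naïve range, with mouse 5 inside the range of the other 3. The log2 fold change was 1.64 ± 0.37 (edgeR adjusted p = 0.0243).

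Mrps16 (chr14:20391222-20393634), an RNA-binding protein of the small subunit that is conserved from bacteria, had the smallest p of that subunit. Naïve mice had 28.4, 28.9, 35.6, 28.1 and 40.0 CPM and pre-exposed mice 37.7, 95.2, 68.8, 71.5 and 80.5 CPM. The groups met only at pre-exposed mouse 1, which lay below naïve mouse 5. Its log2 fold change was 1.14 ± 0.26 (edgeR adjusted p = 0.0254).

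The groups were fully separate, with the lowest pre-exposed mouse above the highest naïve one, in 5 members (in 2.77% of all genes, and in 0 members and 2.17% of all genes the other way): Mrpl14, Mrps28, Mrpl12, Mrpl17 and Mrps18b. Mrpl14 (chr17:45685722-45698495), which sits at the face where the subunits join, had 16.9, 17.7, 25.6, 24.1 and 29.9 CPM in naïve and 32.2, 52.5, 47.0, 45.7 and 54.0 CPM in pre-exposed mice (log2 fold change 1.03 ± 0.25, edgeR adjusted p = 0.0312). Mrps28 (chr3:8802146-8923857), which is related to the bacterial small subunit protein S1, had 18.3, 15.8, 24.3, 19.0 and 23.7 CPM in naïve and 24.9, 58.9, 37.8, 42.7 and 46.9 CPM in pre-exposed mice (1.07 ± 0.27, edgeR adjusted p = 0.0338). Mouse 1 was the lowest pre-exposed mouse in both genes, just above the highest naïve mouse. Mrpl12, the homologue of the stalk protein L7/L12 that recruits translation factors, went from 43.7 ± 6.65 to 80.8 ± 21.4 CPM (mean ± SD, n=5; log2 fold change 0.89, edgeR adjusted p = 0.0433). Each of these 5 genes had 0.00794 in the two-sided exact permutation test, the smallest p that 5 against 5 mice allow. Full separation of the groups gives this p by itself, so it adds nothing to the separation.

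In the most abundant called members, Mrpl33 and Mrpl42, pre-exposed mice 2 to 5 were all above the naïve range. Mrpl33, the homologue of bacterial L33, had 115, 102, 118, 105 and 108 CPM in naïve mice, the tightest on the log2 scale among the 10 leading members, and 112, 328, 243, 162 and 502 CPM in pre-exposed mice (log2 fold change 1.29 ± 0.33, edgeR adjusted p = 0.0367). Mrpl42, a large subunit protein specific to mitochondria, had 89.1, 98.8, 72.7, 65.9 and 79.0 CPM in naïve mice and 75.6, 267, 182, 132 and 287 CPM in pre-exposed mice (1.22 ± 0.32, edgeR adjusted p = 0.0386). In both genes mouse 1 was inside the naïve range and mice 2 and 5 were the highest.

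**Figure D2:**
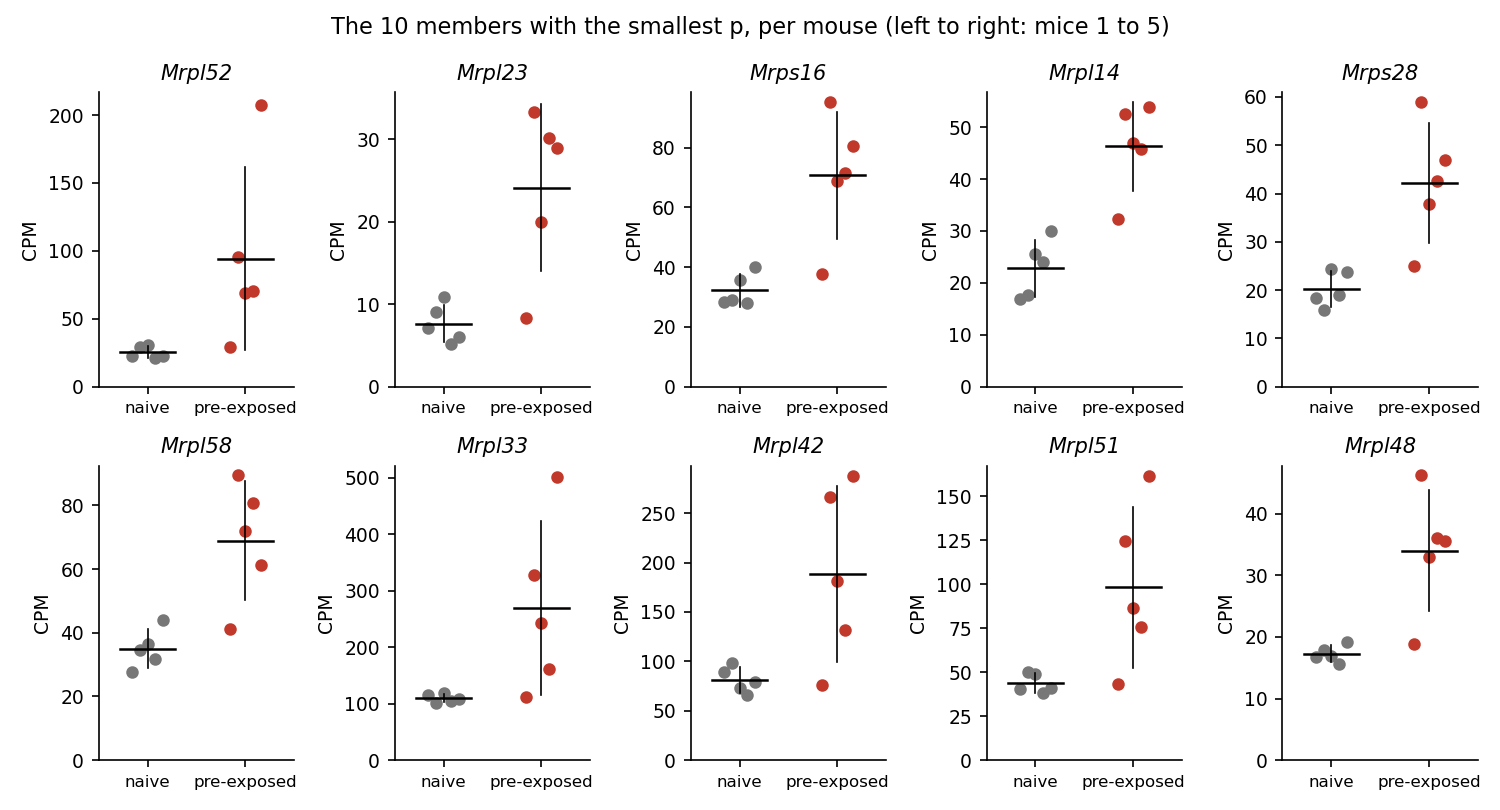
CPM (linear axes from 0) of the 10 members with the smallest p in each naïve (grey) and pre-exposed (red) mouse, ordered from mouse 1 to mouse 5 within a group; horizontal lines are means and vertical lines SDs (n=5). In every panel pre-exposed mouse 1 is the lowest of its group and near the naïve mice, as for Mrpl48 at 18.9 CPM beside a naïve maximum of 19.2.

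Mrpl58, a peptidyl-tRNA hydrolase built into the large subunit that frees peptides from stalled ribosomes, had 27.7, 34.6, 36.5, 31.7 and 44.1 CPM in naïve and 41.3, 89.4, 72.0, 80.7 and 61.2 CPM in pre-exposed mice (log2 fold change 0.99 ± 0.25, edgeR adjusted p = 0.0347). Mrpl51 and Mrpl48, both large subunit proteins specific to mitochondria, changed by 1.16 ± 0.30 and 0.98 ± 0.26 (edgeR adjusted p = 0.0395 and 0.0418). The next calls were Mrpl46 (1.04) and, in the small subunit, Mrps21 (1.05), Mrps24 (0.91), Mrps15 (1.04) and Mrps10 (1.07), with edgeR adjusted p between 0.0421 and 0.0491. Mrpl55 was the last member inside the threshold (0.82, edgeR adjusted p = 0.0492), and Mrpl16 (1.10, 0.0538) and Mrps33 (1.29, 0.0545) were the first outside it. All 18 called members were also called without pre-exposed mouse 5 and with pre-exposed mice 2 to 4 alone, fits in which more of all genes passed (9.69% higher and 5.72% lower, and 15.1% and 14.5%).

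Exons of 26 members overlap those of another annotated gene, for example Rab6a for Mrpl48, Ict1os for Mrpl58, Gm43809 for Mrpl33, Mir3098 for Mrpl51 and Gm16755 for Mrpl12. Without a known strand setting their counts are less certain than those of Mrpl52, Mrpl23, Mrps16, Mrpl14 and Mrps28, for which no overlap is annotated.

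The promoters of these genes are shown for the motif that the members held most often. The sequence before the annotated start was taken from RefSeq (GRCm38.p6), which gave a promoter for 69 of the 78 members. An ETS motif (CCGGAAG on either strand), the kind bound by the GABP regulator of nuclear mitochondrial genes, lay within 250 bases before a start in 18 of the 69 (26.1%), compared with 7.83% of all 27025 genes with a promoter and 16.3% of the 9825 that were also tested. The NRF1 motif (GCATGCGC) was held by 8 (11.6%, against 2.56% and 5.07%) and the YY1 motif (ATGGCGG) by 1 (1.45%, against 2.58% and 4.70%). No motif contains another, and these are letter matches and not shown to be bound. The ETS motif stands in capitals in the 100 bases before the start of Mrpl52 (chr14:54426809-54426908, plus strand) and Mrpl58 (chr11:115403652-115403751, plus strand, where a further annotated start lies inside the window), both called members, and is not in those letters before Mrpl42 (chr10:95501950-95502049, minus strand), which was called as well:
Mrpl52: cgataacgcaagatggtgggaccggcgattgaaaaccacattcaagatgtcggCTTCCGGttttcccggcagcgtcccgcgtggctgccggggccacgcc
Mrpl58: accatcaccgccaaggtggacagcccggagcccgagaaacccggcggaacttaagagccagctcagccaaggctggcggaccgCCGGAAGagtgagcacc
Mrpl42: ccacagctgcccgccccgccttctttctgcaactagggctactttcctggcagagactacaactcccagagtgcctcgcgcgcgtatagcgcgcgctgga
The median log2 fold change was 0.79 in the 18 members with the ETS motif and 0.68 in those without, and for the NRF1 motif it was 0.68 and 0.74. Members with and without either motif were thus close, and the difference was not tested.

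Levels of different members were compared as CPM per kilobase of annotated exon, and they spanned a 51.2-fold range over the mean of both groups. Mrps18c (257.5 ± 57.9 in naïve and 599.7 ± 529 in pre-exposed mice, mean ± SD of CPM per kilobase, n=5) and Mrpl33 (235.6 ± 14.96 and 577.8 ± 329.7) led the order and did not differ beyond their spread. Mrpl42 (121.8 ± 19.6 and 283.2 ± 134.1), Mrps21 (111.5 ± 15.9 and 231.3 ± 92.5) and Mrpl18 (123.9 ± 11.9 and 179.5 ± 135.8) followed, again within each other's spread. At the low end stood Mrps31, a small subunit protein specific to mitochondria (7.74 in naïve and 12.1 in pre-exposed mice), Mrpl17 (6.34 and 11.2) and Mrpl19 (6.81 and 9.94). The order was much the same in both groups, with a rank correlation of 0.945 between the group means over the 78 members, which share libraries and exon lengths.

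**Figure D3:**
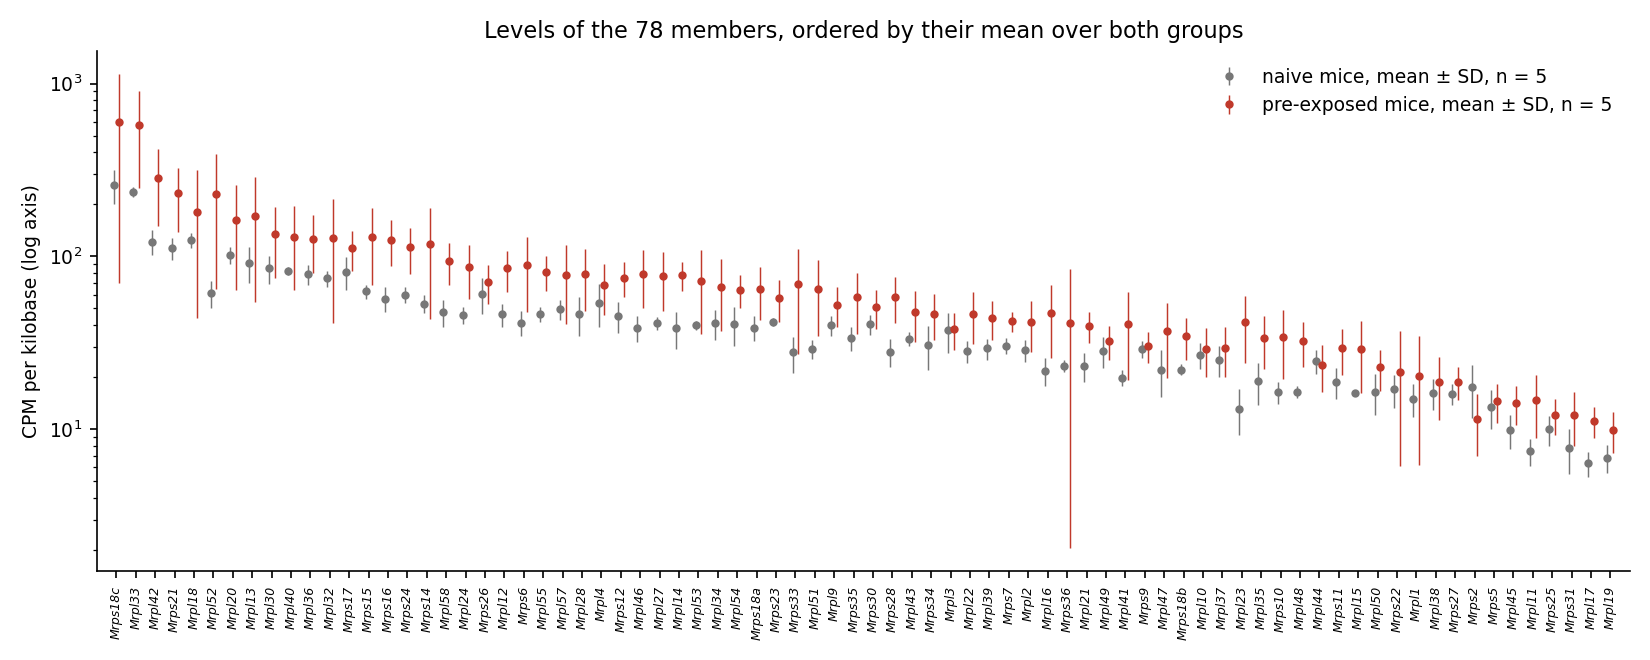
CPM per kilobase (log axis) of the 78 members, ordered from left to right by the mean of both groups; points are group means and bars SDs (n=5), with the lower bar stopped at 5% of the mean where the SD came near or above it (Mrps36). The red points lie above the grey ones for most members, and the bars of the pre-exposed mice are the longer ones.

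Proteins of the S18 family sit in different places, and their genes did not pass the threshold. Mrps18c, the member closest to bacterial S18, had 117 to 153 CPM in naïve mice 1 to 4 and 84.2 in naïve mouse 5, and 128, 238, 237, 136 and 767 CPM in pre-exposed mice 1 to 5. Mouse 5 accounted for much of its log2 fold change of 1.21 ± 0.43 (edgeR adjusted p = 0.0969), which was 0.48 without it. Mrps18a, whose protein belongs to the large subunit in spite of its name, had 26.5 to 38.4 CPM in naïve mice and 33.0, 82.8, 56.4, 63.9 and 43.4 CPM in pre-exposed mice (0.75 ± 0.27, edgeR adjusted p = 0.1001). Mrps18b, in the small subunit, had 21.2 to 24.998 CPM in naïve mice and 27.6, 52.3, 35.2, 38.0 and 28.7 CPM in pre-exposed mice (0.65 ± 0.24, edgeR adjusted p = 0.116). The separation of its groups was thus complete though narrow. Mrps30, a large subunit protein with a small subunit name, had 53.2 to 73.7 CPM in naïve and 59.0 to 99.96 CPM in pre-exposed mice (0.33 ± 0.23, edgeR adjusted p = 0.403).

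Mrps36 is named as a ribosomal protein but is a component of the 2-oxoglutarate dehydrogenase complex. It had 15.5 to 18.6 CPM in naïve mice and 19.2, 18.1, 15.4, 11.2 and 83.9 CPM in pre-exposed mice 1 to 5. Pre-exposed mice 1 to 4 lay around the naïve range and mouse 5 far above any other library. It had the largest spread of all members in the pre-exposed group, and its log2 fold change of 0.79 ± 0.47 (edgeR adjusted p = 0.316) became -0.09 without mouse 5. Mrpl18, the homologue of bacterial L18, which ranked among the most abundant members, showed the same picture with 102 to 134 CPM in naïve mice and 121, 116, 140, 82.3 and 402 CPM in pre-exposed mice (0.53 ± 0.36, edgeR adjusted p = 0.384, -0.08 without mouse 5).

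Mrps2, the homologue of the bacterial small subunit protein S2, had the lowest fold change of the members. It had 42.4, 53.2, 35.1, 31.4 and 20.2 CPM in naïve mice, the widest naïve spread of any member on the log2 scale, and 27.2, 11.8, 28.01, 17.0 and 34.9 CPM in pre-exposed mice. The groups overlapped, and the log2 fold change of -0.64 ± 0.33 did not pass (edgeR adjusted p = 0.247). With pre-exposed mice 2 to 4 alone it was -1.05 (edgeR adjusted p = 0.0259), the 1 member called lower there, beside 46 called higher (15.1% of all genes higher and 14.5% lower). Mrpl44, an RNase III-like large subunit protein (-0.08 ± 0.25), Mrpl3, which reaches toward the peptidyl transferase centre (0.02 ± 0.26), and Mrps9, of the small subunit head (0.07 ± 0.22), were nearest to no difference, with edgeR adjusted p of 0.867 or more.

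Members are short genes, with a median exonic length of 1054 bases (407 to 6712) against 2665 over all genes tested, and the libraries differed by gene length. The rank correlation across genes between a library's deviation from the mean of all 10 libraries and exonic length lay at 0.26 to 0.41 for the naïve libraries, and at 0.27, -0.54, -0.42, -0.24 and -0.14 for pre-exposed mice 1 to 5. Pre-exposed mouse 1, in which the members were at the naïve level, had the naïve sign of this trend. The rank correlation of log2 fold change with length was -0.51 over the 78 members and -0.51 over all 12655 genes, a description across genes that share the same libraries.

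Short members had medians close to those of other short genes. Below 1000 bases, 33 members had a median log2 fold change of 0.85 and 12 were called higher, beside a median of 0.87 and 23.8% called higher over all 1413 genes of that length. Mice 2 to 4 were all above the naïve range in 24 of these 33 members and in 49.96% of these genes. From 1000 to below 2000 bases, 33 members had a median of 0.50 with 5 called, beside 0.32 and 5.86% of 2970 genes.

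Longer members lay above genes of their length, a difference that was not tested. From 2000 to below 4000 bases the 7 members had a median of 0.66, whereas the 4951 genes had -0.09 (1.84% called higher), and edgeR called 0 of the 7. At 4000 bases or more, the 5 members had a median of 0.54 and the 3321 genes -0.33 (1.42% called higher), with 1 member called, Mrpl17. All 5 of these members, and 6 of the 7 before them, lay above the median of their class, compared with 16 of 33 in the shortest class. Exonic length here is the summed length of all annotated exons, and which transcript the cells used was not measured. With the median length of the coding transcripts in GENCODE instead, 6 members of 4000 bases or more had a median of 0.41 beside -0.33 over all genes of that length.

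**Figure D4:**
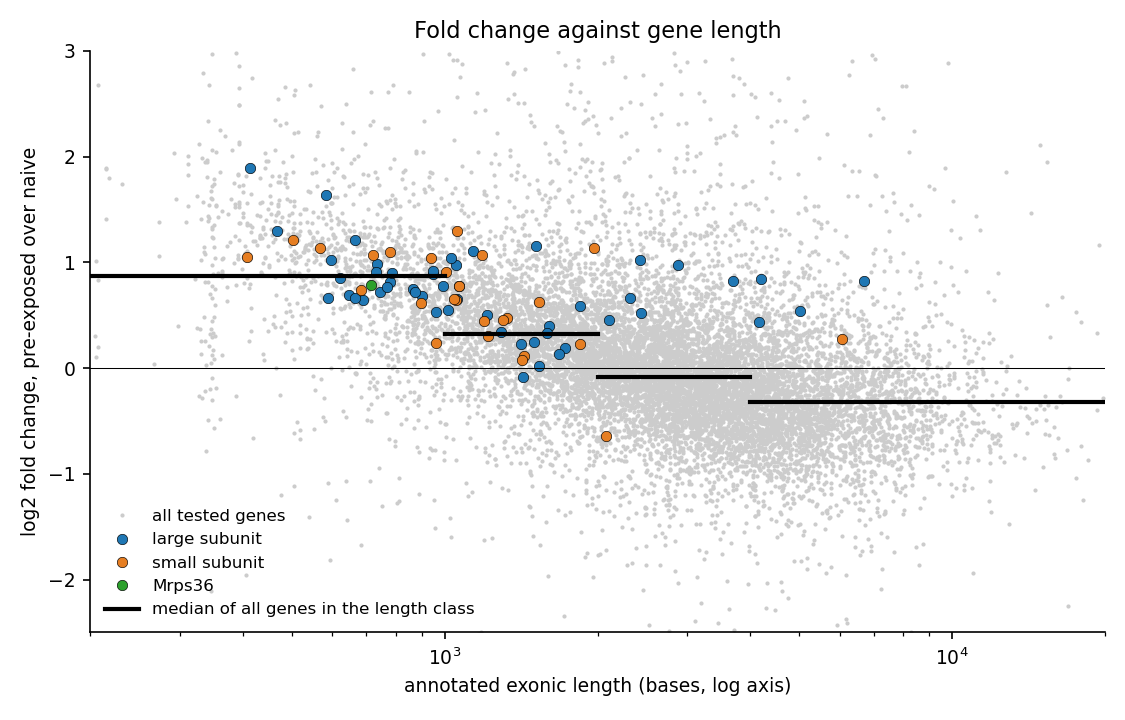
Log2 fold change (pre-exposed over naïve) against annotated exonic length (log axis) for all tested genes (grey, those outside the vertical axis not drawn), large subunit members (blue), small subunit members (orange) and Mrps36 (green); black lines are the medians of all genes in 4 length classes. Short members scatter around the black line at 0.87, and the 5 longest lie above the line at -0.33.

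When a smooth trend of log2 level on length was removed from each library within the edgeR fit (length offset), the median log2 fold change of the members went from 0.72 to 0.10, with 52 above and 26 below 0. The length classes then had member medians of 0.08, 0.07, 0.78 and 0.95, from short to long. Only Mrpl17 was called (1.28 ± 0.28, edgeR adjusted p = 0.0405, with 1.39% of all genes called higher and 0.34% lower), and 12 members were above and 0 below at p under 0.05 before adjustment. Mrpl17, the homologue of bacterial L17 and the member with the longest exons, had 36.9, 44.1, 53.8, 36.5 and 41.3 CPM in naïve mice and 55.5, 98.3, 77.8, 68.8 and 75.2 CPM in pre-exposed mice. Without the offset its log2 fold change was 0.82 ± 0.23 (edgeR adjusted p = 0.0454). The offset used its exonic length of 6712 bases, whereas its median coding transcript in GENCODE has 4164. Some other members with long exons also rose with the offset and did not pass. Examples were Mrpl15 (0.84 to 1.21, edgeR adjusted p with the offset = 0.0814), Mrpl35 (0.82 to 1.13, 0.0989), Mrpl11 (0.97 to 1.15, 0.124) and Mrpl41 (1.02 to 1.15, 0.163). Their median coding transcripts in GENCODE are shorter except in Mrpl35 (3721 bases), with 1894 in Mrpl15, 1929 in Mrpl11 and 776 in Mrpl41. With classes by transcript length, the member medians with the same offset were 0.09, 0.08, 0.32 and 0.46, from short to long.

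**Figure D5:**
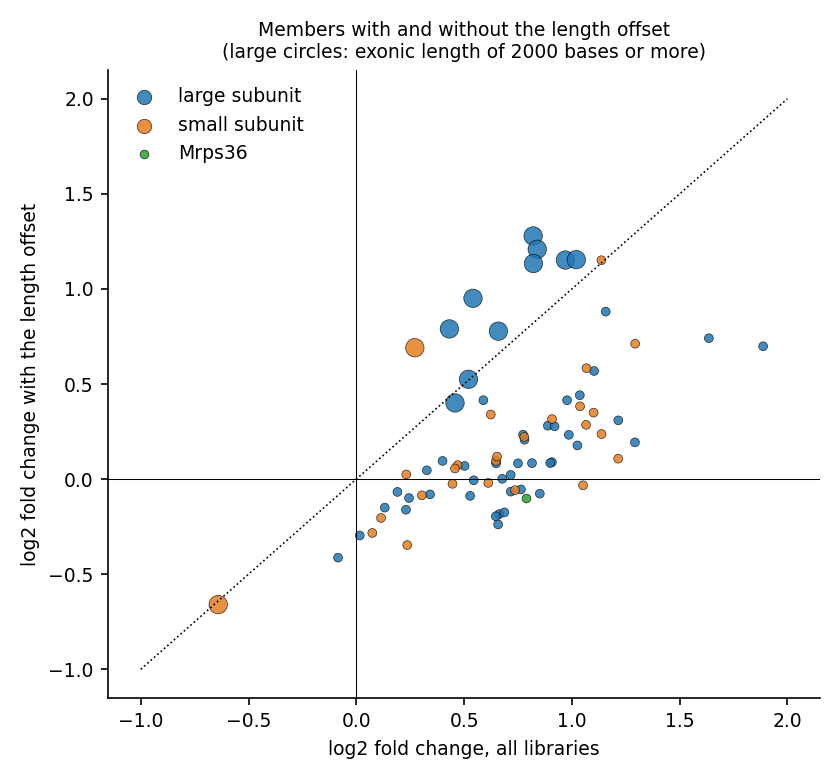
Log2 fold change of the 78 members without (horizontal) and with (vertical) the length offset, with subunits by colour, large circles for exonic lengths of 2000 bases or more and a dotted line of equality. Most small circles fall near 0 on the vertical axis, while 11 of the 12 large circles stay above 0 and Mrps2 is at -0.66.

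Sample descriptions of pre-exposed mice 2, 3 and 4 lack the index pair that those of the other 7 libraries give. With mice 1 and 5 alone against the naïve mice, the members had a median of 0.74, and edgeR called 0 in either direction (37 above and 0 below at an unadjusted p under 0.05; 0.206% of all genes called higher and 0% lower). With mice 2 to 4 alone the median was 0.70. In a fit with this difference as a covariate the median was 0.68 and edgeR called 0 members (36 above and 0 below unadjusted; 0.308% of all genes called higher and 0.0079% lower). Mitochondrial mRNAs made up 0.908%, 1.79% and 0.789% of the counts in mice 2 to 4, 5.26% and 9.40% in mice 1 and 5 and 3.99% to 6.53% in naïve mice. What the missing index pair stands for is not given in the sources used here, and its part in the results was not tested beyond these values.

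Other genes that serve mitochondrial translation were taken from lists written for the pathway. Their edgeR calls stand beside 5.12% of all genes called higher and 1.17% lower. The 2 lists with a call had 3.85% and 5.88% called higher, near that share. Of 5 ribosomal proteins with other names edgeR called 0, with 4 above and 1 below on unadjusted p and 1 called by DESeq2, and the median log2 fold change was 0.60. Among them Chchd1, of the small subunit, was at 1.32 (edgeR adjusted p = 0.0988), with 378 CPM in mouse 5 beside 51.6 to 92.3 in the other pre-exposed mice, and at 0.51 with mice 2 to 4 alone. Of 26 genes for assembly and rRNA modification 1 was called higher, Malsu1 (1.21 ± 0.33, edgeR adjusted p = 0.0438), whose protein binds Mrpl14 on the maturing large subunit and keeps the subunits apart. Malsu1 had 16.2 to 27.9 CPM in naïve mice and 25.2, 52.9, 57.0, 45.1 and 106 CPM in pre-exposed mice, so that mouse 1 again lay within the naïve range. The median of the list was 0.09.

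None of the 14 translation factors was called by edgeR or DESeq2 (1 higher and 1 lower unadjusted in each), and their median was 0.21. The recycling factor Mrrf was at 0.64 (edgeR adjusted p = 0.163) and the elongation factor-like GTPase Guf1 at -0.60 (0.189). Of 17 mitochondrial aminoacyl-tRNA synthetases edgeR called 1 higher, Lars2, which charges leucine tRNA, and 0 lower, with a median of 0.08. The Lars2 call rested on mouse 5 (37405 CPM, where mice 1 to 4 had 538 to 751), and 0 synthetases were called higher without that mouse or by DESeq2, which called 1 lower. Wars2, for tryptophan, was at -1.18 (edgeR adjusted p = 0.0587). EdgeR called 0 of 13 genes for mitochondrial transcription and RNA stability (2 higher and 0 lower unadjusted, 1 higher by DESeq2), with a median of -0.14, and 0 of 10 regulators of nuclear mitochondrial genes (0 unadjusted, 0 by DESeq2), with a median of -0.03. Gabpa, the DNA-binding subunit of GABP, was at -0.32 (edgeR adjusted p = 0.366). These lists hold longer genes than the members, with medians of 1734 to 4322 bases.

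Cytosolic ribosomal proteins and nuclear subunits of the respiratory chain, the other large sets of short genes, had higher medians than the members, which was not tested. Their genes are also shorter, with median exonic lengths of 703 and 679 bases against 1054 for the members. Of 87 cytosolic ribosomal protein genes 41 were called higher (47.1%), with a median of 1.23. Of 77 respiratory chain genes 28 were called higher (36.4%), with a median of 0.98. Over all genes 5.12% were called higher, and 23.8% among those under 1000 bases. In summed CPM with TMM scaling all 3 sets had the order of the pre-exposed mice in common at its ends, lowest in mouse 1 and highest in mouse 5. Without TMM scaling the members were highest in mouse 2 (6239 CPM), with mouse 5 at 5693. Of the 13 mRNAs of the mitochondrial genome, which the mitochondrial ribosome translates, edgeR and DESeq2 called 0 (0 unadjusted in both), and their median was 0.13. The mice differed widely, with a sum of 149352 CPM in mouse 5 beside 7612 to 18616 in mice 2 to 4 and 37959 to 69051 in naïve mice. Without mouse 5 edgeR called 0 of the 13 (11 lower unadjusted), with 5.72% of all genes called lower. With mice 2 to 4 alone, whose sample descriptions lack the index pair, it called all 13 lower (14.5% of all genes). Voom with sample quality weights called 11 lower (13.4% of all genes).

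Members are spread over 17 chromosomes, with 11 on chromosome 11, and 18 share a start region with a coding gene on the other strand within 1000 bases. Of the 17 such neighbours that were tested 1 was called higher and 0 lower, with 5.12% and 1.17% of all genes called. Their median log2 fold change was -0.11, whereas the members beside them had 0.65. Gene length, which the fold changes followed over all genes, was not compared between neighbours and members. Mrpl51, whose start lies 100 bases from that of the condensin gene Ncapd2, was the only called member with such a neighbour. Ncapd2 was at 0.54 (edgeR adjusted p = 0.562). In the reverse case, Fau, which encodes a cytosolic ribosomal protein precursor, was called (1.42, edgeR adjusted p = 0.0276), whereas Mrpl49, with its start 59 bases away, was at 0.19 (0.661).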

How the data were processed

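The authors aligned with Subread to mm10, assigned reads by featureCounts to the NCBI annotation built into it, and deposited whole-number counts per Entrez gene that are not normalized. Tool versions and strandedness of the counting: not given in the sources used here. Kit names differ between the labels and the methods. Groups and replicate numbers came from the labels, with 1 mouse per library, and all pairs within a group differed beyond sampling noise (lowest chi-square over genes, per gene, 24.01).

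Of 27179 genes, 25275 had a symbol (GRCm38.p6, by Entrez ID). filterByExpr kept 13534 genes, of which 767 without a symbol and 112 immunoglobulin genes were left out, and 12655 were tested. The test was edgeR 4.0.16 in R 4.3.3 (TMM, robust quasi-likelihood, legacy set to FALSE, all 10 libraries, no covariate), with Benjamini-Hochberg adjustment over all genes at 0.05. limma 3.58.1 and DESeq2 1.42.0 were alternatives. SEs are the fold change over the square root of F. CPM are counts over the TMM-scaled library size, except for the cell type markers, which are over all counts of the library. Exact permutation tests used log2 CPM with a prior count of 2. The length offset was a loess (span 0.3) of log2 level on exonic length per library. The fits were tested on simulated data.

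Named members were the 10 with the smallest p, the 5 highest and 3 lowest per kilobase, the 4 lowest fold changes, the misnamed members with the Mrps18 paralogues, and the member with the widest spread in each group; of each pathway list, up to 3 genes with the smallest p. The other called members, those just outside the threshold, the long members and the neighbours Fau, Ncapd2 and Mrpl49 were named after their values were seen. Members and lists were chosen with earlier results of these data known. Depth limits precision, and counts cover counting error only.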

Additional observations from a re-analysis of the deposited data

Results flagged for a closer look

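In groups of 5 mice, a level was singled out where its gap to the nearest mouse, over the range of the group, exceeded Dixon's critical value of 0.71. Of 52 groups tested, 3 did so. The 1 in 20 that chance gives does not apply directly here. The members were named partly by their values, Mrps36 also for the widest spread in the pre-exposed group. All 3 were in pre-exposed mouse 5: Mrps18c at 767 CPM (next highest 238, ratio 0.828), Mrps36 at 83.9 CPM (next highest 19.2, ratio 0.889) and Mrpl18 at 402 CPM (next highest 140, ratio 0.821). Mouse 5 was the library with a TMM factor of 0.68 and 24.7% of its counts in 10 genes, and its part in these 3 levels was not tested.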

How the results depend on the processing

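The count of members called depended strongly on the fit, while their median moved only where length was taken out. Beside 18 members called (12 large, 6 small subunit), counts were 6 (5, 1) without scaling beyond library size, 9 (7, 2) without a filter on low counts, 11 (small subunit 2) with at least 1 CPM in 5 libraries, 28 (small subunit 10) with DESeq2, 45 (29, 16) with voom and sample quality weights and 5 (3, 2) with the older dispersion method of edgeR; the share of all genes called higher ran from 2.43% to 14.8% over these settings. With voom and limma they were 0 (0, 0), and with voom and TREAT at 1.5-fold also 0 (42 and 4 members unadjusted). The description style as a covariate gave 0 (0, 0), mice 1 and 5 alone 0 (0, 0), mice 2 to 4 alone 47 (31, 16) and the length offset 1 (1, 0). Leaving out 1 library at a time gave 0 to 37 members (large 0 to 25, small 0 to 12): 0 without naïve mouse 1 or 4 or pre-exposed mouse 2 (35 to 40 unadjusted), 1 to 7 without naïve mouse 2, 3 or 5 or pre-exposed mouse 3 or 4, and 37 without pre-exposed mouse 1. The cause was not tested. The replicate numbers did not pair the mice (correlations of -0.26 to 0.05). With the replicate block 0 members (0 large, 0 small) were called, and 0 (0, 0) with the block and the length offset (32 and 8 unadjusted). Few genes of any kind passed in these fits, with 0.348% and 0.15% of all genes called higher.

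The median of 0.72 became 0.10 with the length offset (large 0.10, small 0.10), and 0.0848 (0.10, 0.0812) with the block as well. Alternatives chosen after seeing the data were the following. The length offset without pre-exposed mouse 5 gave 4 members (3, 1; 2 higher and 2 lower, against 4.94% and 5.61% of all genes) with medians of 0.0640 (0.12, 0.00953). With mice 1 and 5 alone it gave 0 (0, 0, and 10 unadjusted) with 0.14 (0.19, 0.0941), where 0.0839% of all genes were called higher. With mice 2 to 4 alone it gave 16 members, 10 higher and 6 lower (7.5% and 9.1% of all genes), with 0.14 (0.16, 0.0644). Leaving out Jchain gave 2 small subunit members (4.21% of all genes called higher) and library sizes over all genes 3 (4.52%). Directions of values that passed in either fit turned with the length offset for Mrps21 (-0.0326, also -0.0346 with the block, -0.0732 without mouse 5, -0.17 with mice 1 and 5, -0.0506 with mice 2 to 4), Mrps16 (-0.0185) and Mrpl58 (-0.12) with mice 1 and 5, and Mrps36 (-1.01) and Mrpl18 (-0.78) with mice 2 to 4. Genes under 1000 bases had a median of 0.0469 with the offset, which removes such a trend by construction. The YY1 motif was in 0% of members within 100 bases. Other values of named members gave 536 of the same call, 208 weaker and 15 stronger. Of the 536, 49 in 10 members changed sign without passing in either fit, and with the length offset on all libraries these were Mrps36 (-0.10), Mrpl18 (-0.09), Mrps9 (-0.28) and Mrpl3 (-0.30). Member counts were 23446 to 140634 per library, so counting error was small beside the spread between mice.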

Other observations

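Lars2, called among the synthetases, stood at 37405 CPM in pre-exposed mouse 5, at 650, 584, 538 and 751 CPM in mice 1 to 4 of that group and at 274 to 580 CPM among naïve mice. The mitochondrial 16S ribosomal RNA mt-Rnr2 reached 50888 CPM in mouse 5, beside 5912, 844, 1113 and 482 CPM in mice 1 to 4 and 2678 to 7036 CPM among the naïve libraries. In mice 2 to 4 the RNA of the large mitochondrial ribosomal subunit was thus below every naïve library, while the summed level of the mRNAs for its proteins was above. Mice 2 to 4 are also those whose sample descriptions lack the index pair. Mitochondrial mRNAs made up 0.789% to 1.79% of their counts, against 3.99% to 6.53% in naïve mice. The relation of these levels to each other or to the missing index pair was not tested. The log2 fold change of mt-Rnr2 was 1.49 (edgeR adjusted p = 0.360).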
